A study of Mus musculus with 12 samples.

Results

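The genes described here encode the nuclear subunits of the respiratory chain complexes I, III and IV and of the ATP synthase (complex V), measured by RNA-seq in midbrain astrocytes of mice with 2, 1 or 0 working copies of Cd38. A gene was counted as a member when its symbol began with Ndufa, Ndufb, Ndufc, Ndufs or Ndufv (assembly factors of the Ndufaf series excluded), Uqcr, Cox4 to Cox8 or Atp5, or was Cyc1, and when its mean over the 12 libraries was at least 5 TPM (a level scaled for transcript length and library total). Of 20614 genes listed, 85 matched by name and 80 reached the minimum. Of these, 37 belong to complex I, 9 to complex III, 17 to complex IV and 17 to complex V. Among those of complex I, Ndufb1-ps was counted by its symbol. GENCODE vM21 lists it as a long noncoding RNA of a bidirectional promoter and not as protein-coding. No mitochondrially encoded protein gene was among the genes listed, so all 80 members are nuclear, and a comparison by genome of origin was not analysed here. The choice used names and mean levels over all libraries, most of which were mutant, so it was not fully free of genotype. Cox8b, with a mean of 2.30 TPM in Cd38+/+, reached the minimum only through the mutant libraries.

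The 5 names left out were Cox8c (0 TPM in every library), a second Atp5o entry (mean 0.0458 TPM), Cox6a2 (1.33 TPM), Cox7b2 (3.04 TPM) and Cox5b-ps (4.55 TPM). Just above the minimum were Cox8b (9.56 TPM), Cox4i2 (13.5 TPM) and Cox7a1 (17.5 TPM).

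Astrocytes were taken from male mice aged 12 to 14 months (mean 13.5 months), in 3 Cd38+/+, 3 Cd38+/- and 6 Cd38-/- libraries. All mice were bred on C57BL/6J, and the mutant allele is the germline knockout of the strain B6.129P2-Cd38tm1Ln/J, so every cell of the animal carried it and not only astrocytes. Cells were dissociated from striatum, thalamus and substantia nigra and selected with ACSA-2 magnetic beads after removal of myelin, endothelial cells and CD11b-positive cells, and full-length cDNA was made with a low-input kit. CD38 is an ectoenzyme that consumes NAD+, and the study compared astrocytes by the number of its working gene copies. NADH, the reduced form of NAD+, is the substrate of complex I. The labels number the libraries but do not say that each came from 1 animal, so the p-values measure the spread between these libraries.

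Electrons from NADH enter the inner mitochondrial membrane at complex I and those from succinate at complex II. Ubiquinone carries them to complex III and cytochrome c carries them on to complex IV, where oxygen is reduced, and the proton gradient built on the way drives the ATP synthase. Complexes I and III have core subunits from both genomes, complex IV has a catalytic core encoded in mitochondrial DNA, and nuclear accessory subunits assemble and stabilise all of them. Astrocytes are often described as glycolytic cells, but they hold a complete respiratory chain.

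Cd38, the targeted gene, was at 149, 120 and 105 TPM in the Cd38+/+ libraries, at 90.8, 90.7 and 90.4 TPM in the Cd38+/- libraries, and between 8.54 and 21.9 TPM (median 15.7) in the Cd38-/- libraries. The order followed the labels without overlap. The Cd38+/+ libraries stood apart from all others in detection, with 13160 to 13516 genes above 0 TPM against 16160 to 16327 in Cd38+/- and 15920 to 17906 in Cd38-/- libraries. Astrocyte markers summed to 11457 to 16538 TPM in Cd38+/+, 16889 to 19045 TPM in Cd38+/- and 12948 to 16656 TPM in Cd38-/- libraries, so Cd38+/- lay above both other genotypes. Erythroid markers (5 of 5 detected in every genotype) summed to 7770 to 34711 TPM in Cd38+/+, 3228 to 6453 TPM in Cd38+/- and 3805 to 15378 TPM in Cd38-/- libraries. Neuron markers stayed at or below 147 TPM (15 genes, of which 3 were at 0 in all Cd38+/+ libraries) and microglia markers at or below 165 TPM (9 genes, of which 2 were at 0 in all Cd38+/+ libraries). Ependymal markers summed to 4584 to 7884 TPM in Cd38+/+, 4051 to 5425 TPM in Cd38+/- and 5143 to 8179 TPM in Cd38-/- libraries, and 4 of these 6 genes were higher in every Cd38-/- than in any Cd38+/- library. Over all libraries, oligodendrocyte markers ran from 1302 to 17817 TPM and endothelial markers from 351 to 1981 TPM. The part of these cells in the member values was not tested. The labels name no batch. Detection therefore cannot be told apart from the Cd38+/+ genotype in either comparison with it, and both comparisons share the same 3 Cd38+/+ libraries. In bulk RNA, fewer cells of a type and less RNA per cell cannot be told apart either.

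The promoters of these genes are known for sites of NRF1, of the ETS factor NRF2 (GABP) and of YY1, which coordinate nuclear respiratory genes. In RefSeq promoters on GRCm38.p6 (250 bases before to 50 after a start, matched for 65 of the 80 members), the NRF1 letters GCGCATGCGC, the ETS letters CCGGAAG and the YY1 letters AAGATGG were searched on both strands. The NRF1 letters were in 5 member genes (7.69%) against 1.07% of all genes and 0.971% of all promoters, the ETS letters in 15 (23.1%) against 9.93% and 8.86%, and the YY1 letters in 11 (16.9%) against 7.28% and 6.34%. None of the 3 motifs contains another. The 30 bases around the motif are shown for Ndufb7, the member that passed the test described further on, and for Ndufa11, Atp5k and Atp5g2, in which the NRF1 letters lie closest upstream of the RefSeq start. Each runs 5′ to 3′ on the strand of its gene, with the motif in capitals.
Ndufb7, chr8:83566728-83566757, plus strand, ETS letters: cctagatgacCCGGAAGacactgaaggggc
Ndufa11, chr17:56717692-56717721, plus strand, NRF1 letters: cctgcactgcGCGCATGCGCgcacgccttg
Atp5k, chr5:108434430-108434459, minus strand, NRF1 letters: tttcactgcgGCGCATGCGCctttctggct
Atp5g2, chr15:102671070-102671099, minus strand, NRF1 letters: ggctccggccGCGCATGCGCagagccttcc
The letters begin 20 bases before the start in Ndufb7, 60 in Ndufa11, 50 in Atp5k and 42 in Atp5g2. GENCODE vM21 starts some of these genes earlier than RefSeq: it places all 30 bases of Ndufb7 and Atp5g2, 19 of Atp5k and 0 of Ndufa11 in an exon of the gene. A match describes these letters and was not tested as a bound site.

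The members were among the well expressed genes of these cells and together took 2.44% to 3.50% of the TPM of a library. Leaving the 5 alternative isoforms aside, the mean level over the 12 libraries ranged from 74.1 TPM (Ndufb1-ps) to 520 TPM (Ndufb8) in complex I, from 191 TPM (Uqcrc2) to 642 TPM (Uqcr11) in complex III, from 102 TPM (Cox7a2l) to 1257 TPM (Cox4i1) in complex IV and from 227 TPM (Atp5pb) to 1948 TPM (Atp5b, the catalytic beta subunit) in complex V. The median subunit was at 261 TPM in complex I, 374 TPM in complex III, 495 TPM in complex IV and 429 TPM in complex V. These levels are scaled for transcript length. How fully short transcripts were recovered was not tested, so comparisons of level between genes are approximate.

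Libraries of 1 genotype differed widely in the summed level of the members, and the genotypes overlapped. The 80 members summed to 30916, 33276 and 34994 TPM in Cd38+/+ and to 25944, 33164 and 28494 TPM in Cd38+/- libraries. In Cd38-/- libraries the sum ran from 24445 TPM (replicate 1) to 34912 TPM (replicate 3), with a median of 32049 TPM. The means were 33062 ± 2048 (SD, n = 3), 29200 ± 3661 (SD, n = 3) and 31124 ± 4185 TPM (SD, n = 6). Cd38-/- replicate 1 held the lowest value of all 12 libraries for 38 of the 80 members, and Cd38+/- replicate 1 for 20. In each of the 4 complexes, Cd38-/- replicate 1 had the lowest sum of all libraries and Cd38+/- replicate 1 the next, as the plot of summed TPM by complex shows.

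**Figure D1:**
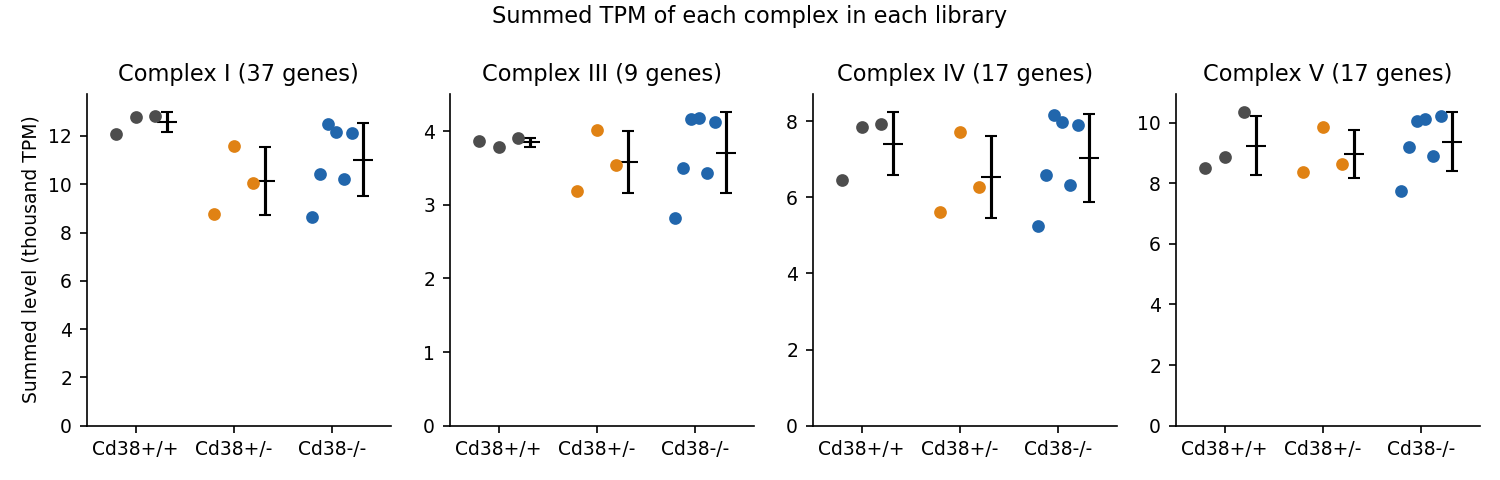
Summed TPM of the members of complex I, III, IV and V (y axis, scaled as the axis label says) in each library (points) of the 3 genotypes, with the mean and SD of the genotype beside them. Complex I had 12094 to 12822 TPM in Cd38+/+, 8759 to 11568 TPM in Cd38+/- and 8642 to 12515 TPM in Cd38-/- libraries; the other complexes overlapped over most of their range.

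Complex I was the complex whose genes lay furthest below Cd38+/+. Its sum was 12094, 12788 and 12822 TPM in Cd38+/+ and 8759, 11568 and 10037 TPM in Cd38+/- libraries, which did not overlap. In Cd38-/- libraries it ran from 8642 to 12515 TPM (median 11265), so it overlapped Cd38+/+ in the upper libraries. The ATP synthase, by contrast, summed to 8504, 8865 and 10333 TPM in Cd38+/+, 8385, 9852 and 8649 TPM in Cd38+/-, and 7740 to 10214 TPM (median 9637) in Cd38-/- libraries, with full overlap.

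Within a library, the balance between the complexes can be read without any scaling between libraries. Complex I took 39.1%, 38.4% and 36.6% of the summed member TPM in Cd38+/+, 33.8%, 34.9% and 35.2% in Cd38+/-, and 35.0% to 35.8% (median 35.3%) in Cd38-/- libraries, so each of the 9 mutant libraries was below each Cd38+/+ library. Complex V took 27.5%, 26.6% and 29.5% in Cd38+/+, 29.7% to 32.3% in Cd38+/-, and 28.8% to 31.7% (median 30.3%) in Cd38-/- libraries, and here Cd38+/+ replicate 3 lay within the Cd38-/- range and just below the Cd38+/- range. The shares of complex III (11.2% to 12.5% over all libraries) and complex IV (20.9% to 23.6%) overlapped between all genotypes.

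The separation of complex I depends on how genes are weighed. When every gene counts equally, the mean log2 level of complex I minus that of complex V was -0.60, -0.53 and -0.78 in Cd38+/+, -0.91, -0.82 and -0.78 in Cd38+/-, and -0.85 to -0.77 in Cd38-/- libraries. Cd38+/+ replicate 3 then fell inside the Cd38-/- range. The ratio of complex I to complex V TPM was likewise 1.42 and 1.44 in the other Cd38+/+ libraries, but 1.24 in replicate 3, against at most 1.17 in Cd38+/- and at most 1.24 in Cd38-/- libraries. Without Atp5b this ratio was 1.55 to 1.81 in Cd38+/+ and 1.36 to 1.53 in the mutant libraries, without overlap. Complex I minus complex IV (isoforms left out) in mean log2 level was -0.75 to -0.63 in Cd38+/+, -0.81 to -0.73 in Cd38+/- and -0.80 to -0.71 in Cd38-/- libraries, and overlapped. Complexes I and V are alike in median transcript length (704 and 710 nt) and GC content (52.9% and 52.2%), whereas complex IV was at 606 nt and 55.0%. These are descriptions of the list, with no test.

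**Figure D2:**
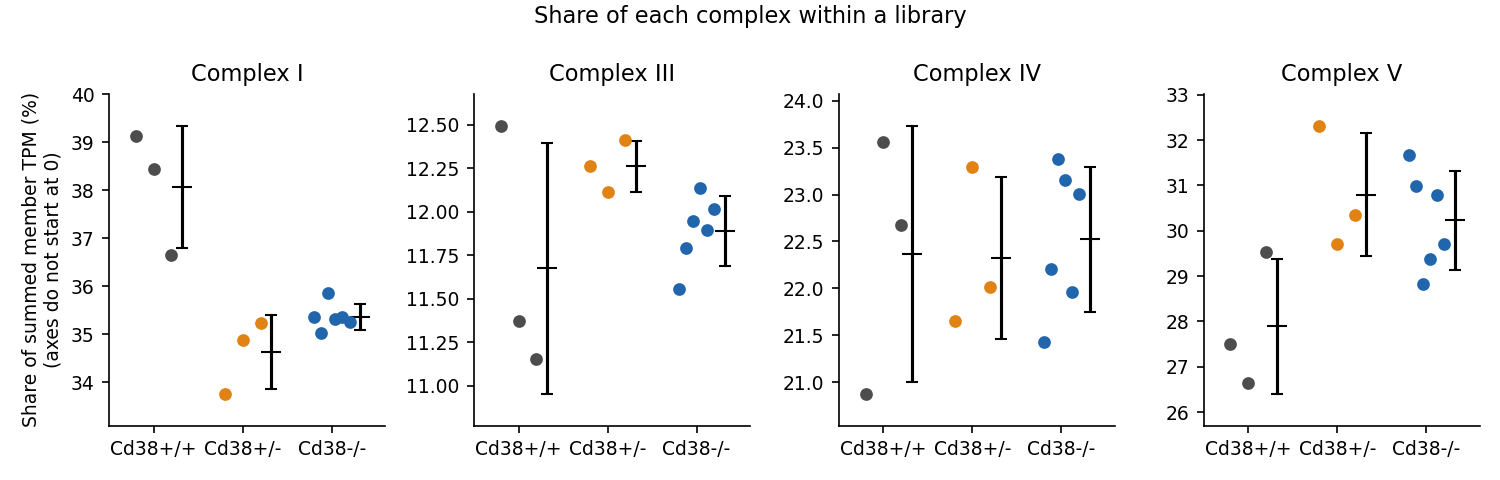
Share of each complex in the summed TPM of all 80 members (y axis, percent; the axes do not start at 0) in each library (points), with mean and SD by genotype. The complex I shares of the Cd38+/+ libraries (36.6% to 39.1%) lie above those of all mutant libraries (33.8% to 35.8%), while the other 3 complexes overlap between Cd38+/+ and Cd38-/-.

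Single genes were tested with limma on log2(TPM + 1) over all genes with a mean above 5 TPM in at least 1 compared genotype, and a call needed a Storey q below 0.05 together with a change of 1.2-fold or more. A fold change on this scale slightly understates the change of low genes. All 80 members passed this filter in each comparison.

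Against Cd38+/+, Cd38+/- astrocytes had 63 of 80 members below 0 in log2 fold change (78.8%, against 35.6% of all 11763 genes tested), with a median of -0.21 against 0.18 over all genes. No member was called in Cd38+/-, and neither was any other gene (0% lower and 0% in either direction). At an unadjusted p under 0.05, 9 members were lower and 1 was higher, beside 3.99% of all genes lower and 9.5% higher. The 3 libraries of each genotype did not overlap for 13 lower members and 1 higher member, beside 6.94% of genes lower and 15.5% higher.

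Cd38-/- against Cd38+/+ gave 53 of 80 members below 0 (66.2%, against 35.7% of 11722 genes), with a median of -0.09 against 0.15. Without Cd38-/- replicate 1 the median was -0.02, with 43 members below 0. Here 1 member was called, Ndufb7, which fell, beside 1.86% of genes called lower and 8.28% called in either direction, so the members' share (1 of 80) was near the background. At an unadjusted p under 0.05, 6 members were lower and 1 higher, where 5.99% of all genes were lower and 17.6% higher. For 7 members every Cd38-/- library was below every Cd38+/+ library and for 0 members above, where 3.62% and 8.21% of all genes had such a pattern.

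Cd38-/- against Cd38+/- put 19 of 80 members below 0 (23.8%, against 54.6% of 11563 genes), with a median of 0.08 against -0.02, and of 0.0049 with length and GC trends removed or -0.0075 without Cd38+/- replicate 1. No member was called (limma and Storey q, 4 genes called of all tested: 0.0173% lower and 0.0346% in either direction), nor was any with Benjamini-Hochberg adjustment. At an unadjusted p under 0.05, 0 members were lower and 3 higher, Atp5k, Ndufb1-ps and Cox7b, beside 5% and 6.24% of genes. No member separated the 2 genotypes, where 2.88% of genes did so lower and 2.85% higher. The names of these 3 were given after their values were seen.

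By complex, the median log2 fold change in Cd38+/- against Cd38+/+ was -0.30 for complex I, -0.08 for complex III, -0.08 for complex IV and -0.06 for complex V. In Cd38-/- against Cd38+/+ it was -0.16, -0.08, -0.04 and 0.01, and in Cd38-/- against Cd38+/- it was 0.08, 0.04, 0.08 and 0.03. Of the 37 complex I genes, 34 were below 0 in Cd38+/- and 30 in Cd38-/-, while of the 17 complex V genes 10 and 7 were. With median-ratio scaling the median of all genes in Cd38-/- against Cd38+/+ moved from 0.15 to 0.03 and complex V from 0.01 to -0.12, so the direction of complex V depends on the scaling, and complex I stood at -0.29. Relative to the median of all genes, each complex was lower in both mutants under these 2 scalings, whereas with quantile normalization complex V in Cd38-/- stood at 0.02 against 0.01 for all genes.

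**Figure D3:**
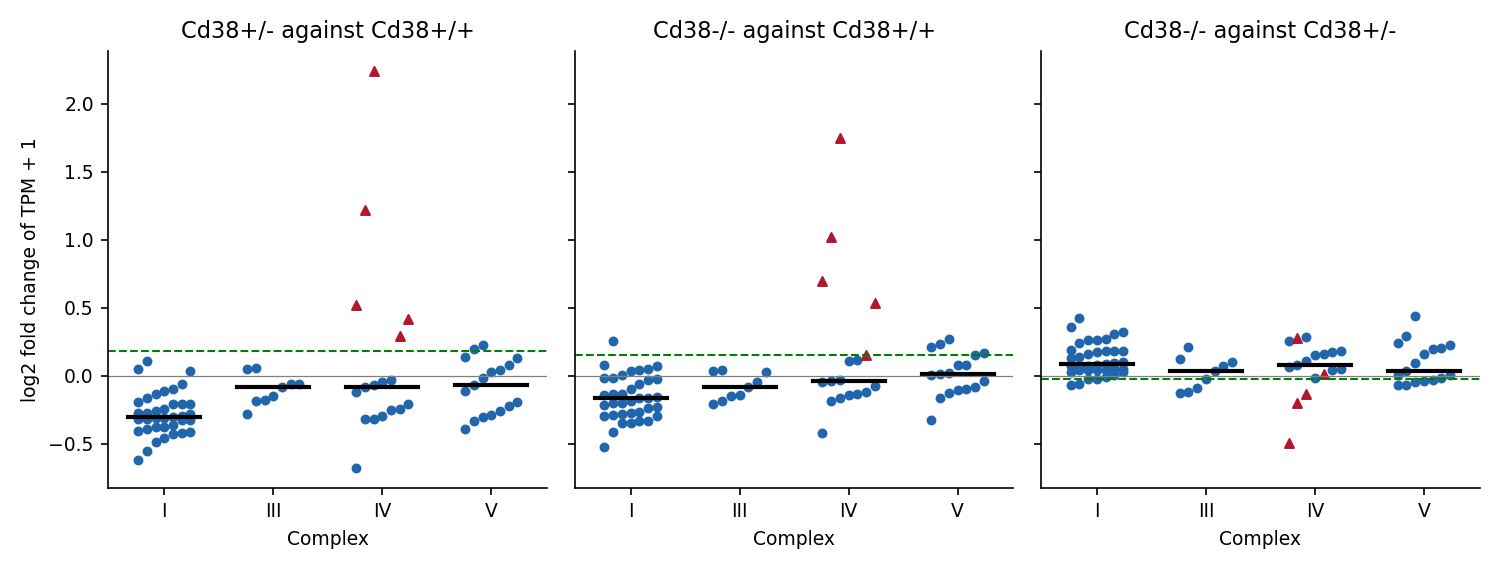
Log2 fold change of TPM + 1 (y axis) of every member, by complex (x axis), in the 3 comparisons; circles are subunits, triangles are alternative isoforms, black bars are medians and the dashed line is the median of all genes tested. Complex I lies lowest in both comparisons with Cd38+/+ (medians -0.30 and -0.16), and the highest values in both are isoforms of complex IV.

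Most members are short transcripts, and log2 fold changes in the comparisons with Cd38+/+ moved with length. The median member was 648 nt long against 2121 nt over all genes with a mean of at least 5 TPM, and 68 of the 80 members fell in the shortest 20% of genes. In Cd38+/- against Cd38+/+ the median log2 fold change of all genes went from -0.07 in the shortest 20% of genes to 0.42 in the longest, and in Cd38-/- from 0.02 to 0.29. Among the shortest genes the members stood at -0.21 and -0.08, below the -0.07 and 0.02 of all genes there. With each library's trend on length and GC content removed, 7 members were called in Cd38-/- against Cd38+/+ (Ndufb7, Ndufa12, Ndufab1, Ndufb6, Cox7a2l and Atp5o lower, Cox4i2 higher), where 1315 of 11709 genes were called and 894 of these were lower, so the members were called about as often as genes in general. In that fit the median over the members was -0.20 against -0.07 over all genes, and the complexes stood at -0.29, -0.15, -0.16 and -0.13.

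Other sets of short mitochondrial or ribosomal transcripts were read beside the members. The 78 mitochondrial ribosome protein genes had medians of -0.24 in Cd38+/- and -0.17 in Cd38-/- against Cd38+/+, with 5 called lower in Cd38-/- where 1.86% of all genes were. The 83 cytosolic ribosome protein genes had medians of -0.30 in Cd38+/- and 0.02 in Cd38-/-, with 1 called lower and 1 higher in Cd38-/-. Between the mutant genotypes the cytosolic set stood at 0.30 and the members at 0.08.

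Ndufb7, an accessory subunit of the membrane arm of complex I that faces the intermembrane space, was the member that fell in Cd38-/- astrocytes. It was at 390, 459 and 451 TPM in Cd38+/+, at 256, 323 and 267 TPM in Cd38+/-, and at 233 to 345 TPM (median 309) in Cd38-/- libraries. Every mutant library was below every Cd38+/+ library. In Cd38-/- the log2 fold change was -0.52 (SE 0.14, 95% interval -0.83 to -0.22, limma Storey q = 0.0350), or 0.695 of the Cd38+/+ level, and the two-sided exact permutation test gave p = 0.0238. In Cd38+/- it was -0.62 (SE 0.15, limma q = 0.176), which did not pass, and the exact test cannot go below p = 0.1 with 3 against 3. Cd38-/- and Cd38+/- differed by 0.10 (95% interval -0.20 to 0.39). The call was made in 7 of 13 alternative settings and in 5 of 9 fits with 1 library left out. Over all of these fits the limma q ran from 0.0183 to 0.458. The call was lost without Cd38-/- replicate 1, 2, 5 or 6, where calls over all genes fell from 970 to between 74 and 154.

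Other accessory subunits of complex I were lower in the mutant libraries without a call. Ndufa12, an accessory subunit of the matrix arm, was at 676, 529 and 584 TPM in Cd38+/+, 363, 501 and 439 TPM in Cd38+/-, and 330 to 523 TPM (median 460) in Cd38-/- libraries. Its lowest Cd38+/+ library (529 TPM) was just above its highest Cd38-/- library (523 TPM), and its log2 fold changes were -0.46 (SE 0.17, q = 0.204) and -0.41 (SE 0.15, q = 0.0741). Ndufa10 was at 221, 294 and 208 TPM in Cd38+/+, 180, 194 and 197 TPM in Cd38+/-, and 167 to 203 TPM (median 187) in Cd38-/- libraries, with q = 0.269 and q = 0.0793 by limma. The spread of Ndufa10 was mostly in Cd38+/+, where replicate 2 was highest.

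Ndufab1, the mitochondrial acyl carrier protein that is also a complex I subunit, was at 473, 492 and 510 TPM in Cd38+/+, 341, 456 and 386 TPM in Cd38+/-, and 406 to 473 TPM (median 454) in Cd38-/- libraries. The gap between the lowest Cd38+/+ and the highest Cd38-/- library was under 1 TPM. Ndufa7, Ndufa13, Ndufa11 and Ndufv3 separated Cd38+/- from Cd38+/+, with log2 fold changes of -0.56, -0.49, -0.43 and -0.39 (limma q between 0.190 and 0.224), and overlapped Cd38+/+ in Cd38-/-, where they were -0.29, -0.33, -0.35 and -0.26. Ndufa13 is also known as GRIM-19, a partner of STAT3. Ndufb10 and Ndufb6 separated Cd38+/- from Cd38+/+ as well, at -0.31 and -0.32.

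The most abundant complex I transcripts overlapped. Ndufb8 was at 731, 649 and 471 TPM in Cd38+/+, 383, 608 and 453 TPM in Cd38+/-, and 347 to 585 TPM (median 501) in Cd38-/- libraries. Ndufb9 was at 556, 518 and 538 TPM in Cd38+/+, but its Cd38+/- libraries ran from 338 to 578 TPM. In both genes the lowest mutant libraries were the replicates numbered 1.

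The core subunits of complex I bind the flavin and the iron-sulphur clusters and carry the electron transfer itself. Their medians were -0.21 in Cd38+/- and -0.16 in Cd38-/-, and 0 of 7 were called. Ndufs3 was the core subunit that separated the genotypes, with 252, 234 and 258 TPM in Cd38+/+, 188, 230 and 210 TPM in Cd38+/-, and 181 to 230 TPM (median 223) in Cd38-/- libraries (log2 fold changes -0.25 and -0.20, limma q = 0.299 and 0.168). Ndufs7, Ndufs8, Ndufv1 and Ndufv2 were between -0.31 and -0.11 in both comparisons and overlapped. Ndufs1, the largest core subunit, was at 0.05 in Cd38+/- and -0.02 in Cd38-/-.

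Ndufs1 also shows how the Cd38+/+ libraries could differ among themselves. It was at 93.4, 184 and 120 TPM there, at 133, 131 and 131 TPM in Cd38+/-, and at 110 to 135 TPM in Cd38-/- libraries. The SD of log2(TPM + 1) had a median over the members of 0.21 for Cd38+/+, 0.21 for Cd38+/- and 0.24 for Cd38-/- libraries. Over all genes with a mean of at least 5 TPM this median was 0.48 for the Cd38+/+, 0.20 for the Cd38+/- and 0.23 for the Cd38-/- libraries, so the wider spread of the Cd38+/+ libraries was seen over all genes and not at the median member.

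**Figure D4:**
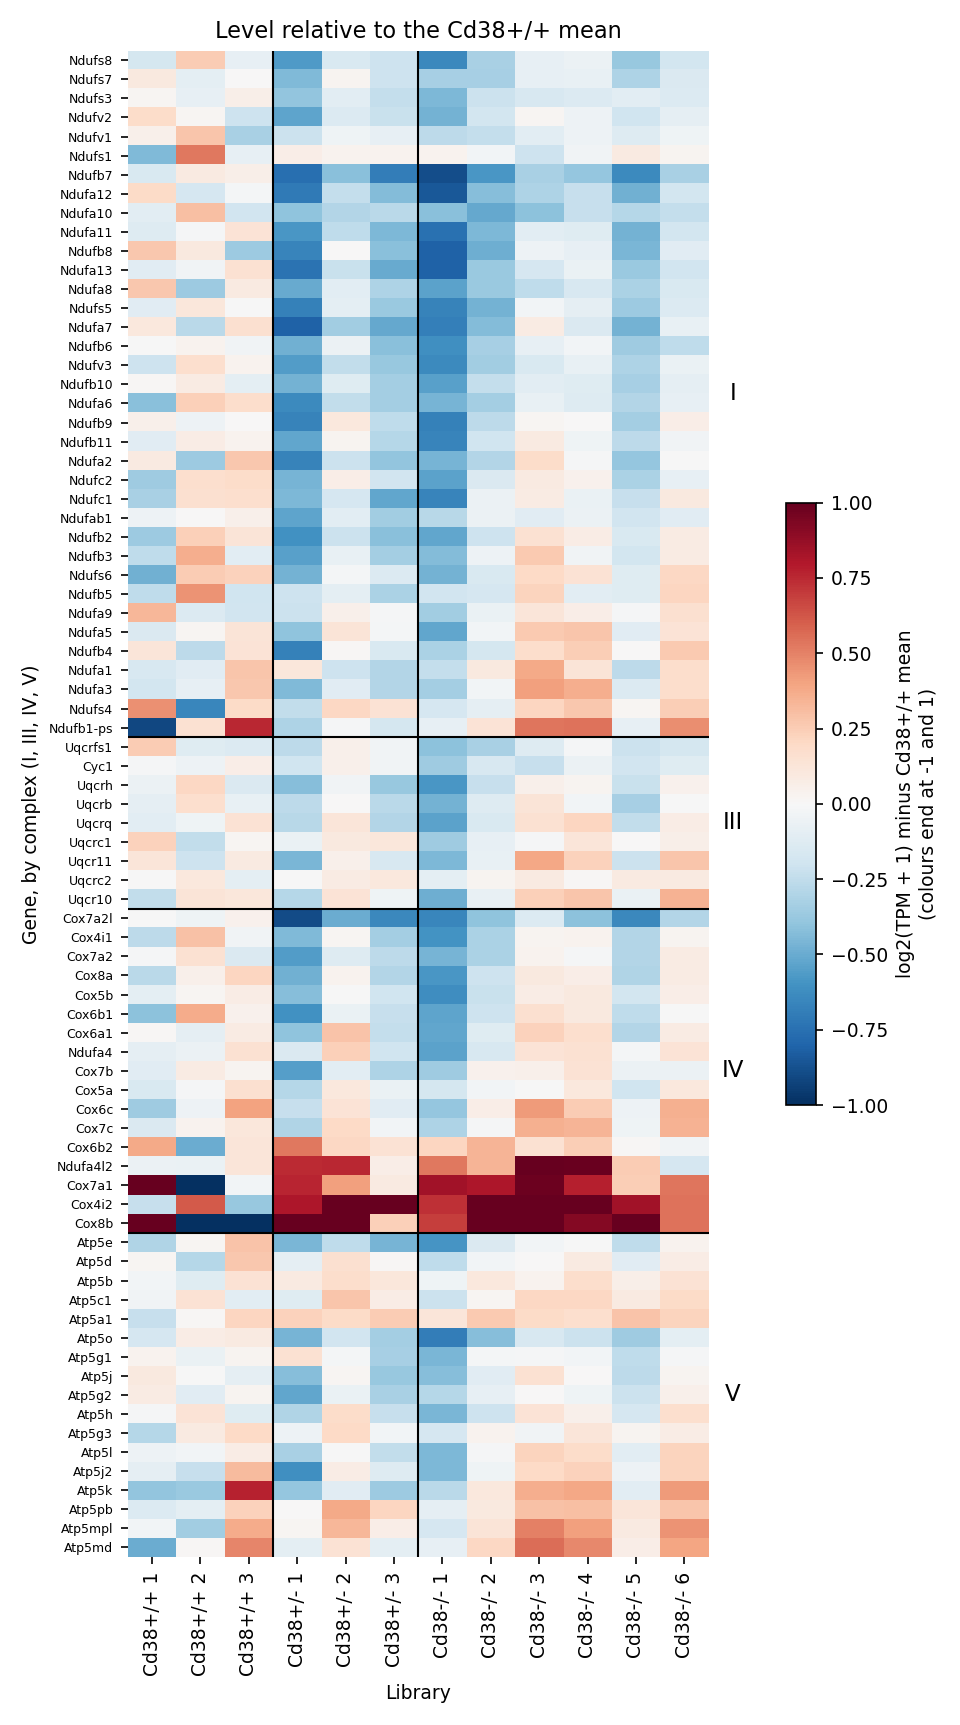
Log2(TPM + 1) of the members (y axis, 1 gene not shown, ordered by complex, with core subunits first and isoforms last) in each of the 12 libraries (x axis), relative to the Cd38+/+ mean of the gene; colours end at -1 and 1. Cd38+/- replicate 1 and Cd38-/- replicate 1 are the darkest blue columns, with 20 and 38 lowest values, and Cox4i2 is above the Cd38+/+ mean in all 9 mutant libraries.

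In complex III, 0 of 9 members were called. Cyc1, the cytochrome c1 that passes electrons to cytochrome c, was at 356, 348 and 378 TPM in Cd38+/+, 313, 373 and 351 TPM in Cd38+/-, and 282 to 345 TPM (median 319) in Cd38-/- libraries. The Cd38-/- libraries lay below all Cd38+/+ libraries by a narrow margin (log2 fold change -0.19, SE 0.10, limma q = 0.164), whereas Cd38+/- overlapped (-0.06). Uqcrfs1, the Rieske iron-sulphur protein, was at -0.08 and -0.21 and overlapped in both. The 2 most abundant genes, Uqcr11 and Uqcr10, were at -0.19 and -0.06 in Cd38+/- and at 0.03 and 0.04 in Cd38-/-.

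In complex IV the catalytic core is encoded in mitochondrial DNA, and the nuclear members are regulatory or structural subunits. None of the 17 was called. The 11 main accessory subunits had medians of -0.21 in Cd38+/- and -0.07 in Cd38-/-. Cox4i1 was at 1154, 1692 and 1348 TPM in Cd38+/+, 1019, 1399 and 1091 TPM in Cd38+/-, and 912 to 1418 TPM (median 1267) in Cd38-/- libraries, and Cox8a, the other most abundant gene, was at -0.25 and -0.14 with overlap.

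Cox7a2l, described as joining complexes III and IV into supercomplexes (not tested here), had the lowest log2 fold change of all members in Cd38+/-. It was at 131, 127 and 135 TPM in Cd38+/+, 69.9, 92.2 and 83.0 TPM in Cd38+/-, and 82.7 to 119 TPM (median 98.1) in Cd38-/- libraries. No mutant library reached a Cd38+/+ library. The log2 fold changes were -0.68 (SE 0.18, limma q = 0.176) and -0.42 (SE 0.14, limma q = 0.0598), and neither passed. Its 3 Cd38+/+ libraries were close together (SD 4.09 TPM). Cd38-/- was above Cd38+/- by 0.25 (95% interval -0.04 to 0.55).

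The alternative isoforms of complex IV are low in brain and stand in for the main subunit in other cells or conditions, and all 5 had positive log2 fold changes in both comparisons with Cd38+/+, where most genes were above 0 (35.6% and 35.7% of all genes tested were below). Cox8b, with a mean of 2.30 TPM in Cd38+/+, passed the filter only through the mutant libraries, which fixed its direction. Without Cd38+/+ replicate 2, Cox7a1 in Cd38+/- went to -0.25 and Cox6b2 in Cd38-/- to -0.09. Cox4i2, the isoform of Cox4i1 known from lung and from oxygen-sensing cells, was at 5.48, 10.6 and 4.83 TPM in Cd38+/+, 12.3, 24.4 and 15.4 TPM in Cd38+/-, and 10.1 to 20.4 TPM (median 14.1) in Cd38-/- libraries. The Cd38+/- libraries were all above Cd38+/+, and 1 Cd38-/- library (replicate 6, 10.1 TPM) was below Cd38+/+ replicate 2. The log2 fold changes were 1.22 (SE 0.46, limma q = 0.209) and 1.02 (SE 0.32, limma q = 0.0527), neither of which passed. Per 100 TPM of Cox4i1 there were 0.358 to 0.626 TPM of Cox4i2 in Cd38+/+ libraries, 1.21 to 1.74 in Cd38+/- and 0.715 to 1.44 in Cd38-/-, so that this ratio did not overlap between Cd38+/+ and either mutant. The ratio of Ndufa4l2 to Ndufa4 was 3.17 to 3.27 in Cd38+/+, 3.85 to 6.13 in Cd38+/- and 2.57 to 7.41 in Cd38-/- libraries, so it overlapped in Cd38-/-. The ratios of Cox7a1, Cox6b2 and Cox8b overlapped Cd38+/+ in both mutants. No share over all genes was computed for such ratios.

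Markers of mural cells were read beside Cox4i2. Their list of 9 genes summed to 238 to 362 TPM in Cd38+/+, 221 to 420 TPM in Cd38+/- and 233 to 330 TPM in Cd38-/- libraries, with no gene at 0 in all libraries of a genotype, and 5 of the 9 genes were below 0 in log2 fold change in each comparison with Cd38+/+ (medians -0.09 and -0.04). Because this list also holds fibroblast genes such as Dcn and Lum, its sums and medians do not describe mural cells alone. Within that list, the pericyte genes Rgs5 and Pdgfrb were chosen after their values were seen. Rgs5 was at 15.7, 18.2 and 12.0 TPM in Cd38+/+, 36.1, 29.4 and 18.6 TPM in Cd38+/-, and 15.2 to 36.3 TPM in Cd38-/- libraries. Pdgfrb was at 29.3, 52.2 and 29.8 TPM in Cd38+/+, 92.9, 72.2 and 71.1 TPM in Cd38+/-, and 40.2 to 68.0 TPM in Cd38-/- libraries. The part of these cells in the Cox4i2 values was not tested.

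Cox8b, the heart and muscle isoform of Cox8a, was at 6.91, 0 and 0 TPM in Cd38+/+, 48.0, 6.29 and 1.35 TPM in Cd38+/-, and 1.90 to 28.04 TPM (median 4.50) in Cd38-/- libraries. The genotypes overlapped, and 1 library decided the mean of Cd38+/-. Ttr, the defining choroid plexus marker, was at 6537 TPM in Cd38+/- replicate 1 (Cox8b 48.0 TPM), at 1642 TPM in Cd38-/- replicate 2 (Cox8b 28.04 TPM) and at 1014 TPM in Cd38-/- replicate 5 (Cox8b 11.1 TPM). It was listed at 0 in Cd38+/+ replicates 2 and 3, as Cox8b was, and was at 366 TPM or less in all other libraries. The 5 choroid plexus markers summed to 45.6 to 305 TPM in Cd38+/+, 197 to 7293 TPM in Cd38+/- and 221 to 1935 TPM in Cd38-/- libraries, and their part in the Cox8b values was not tested.

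The other isoforms overlapped between all genotypes. Cox7a1, also a heart and muscle form, was at 30.7, 3.94 and 11.2 TPM in Cd38+/+ and at 12.2 to 23.4 TPM in the 9 mutant libraries. Ndufa4l2, a hypoxia-induced relative of Ndufa4, was at 12.6, 12.5 and 14.4 TPM in Cd38+/+ and at 11.53 to 33.3 TPM in Cd38-/- libraries, with log2 fold changes of 0.52 and 0.54. Cox6b2, the testis form of Cox6b1, was at 0.29 and 0.16.

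**Figure D5:**
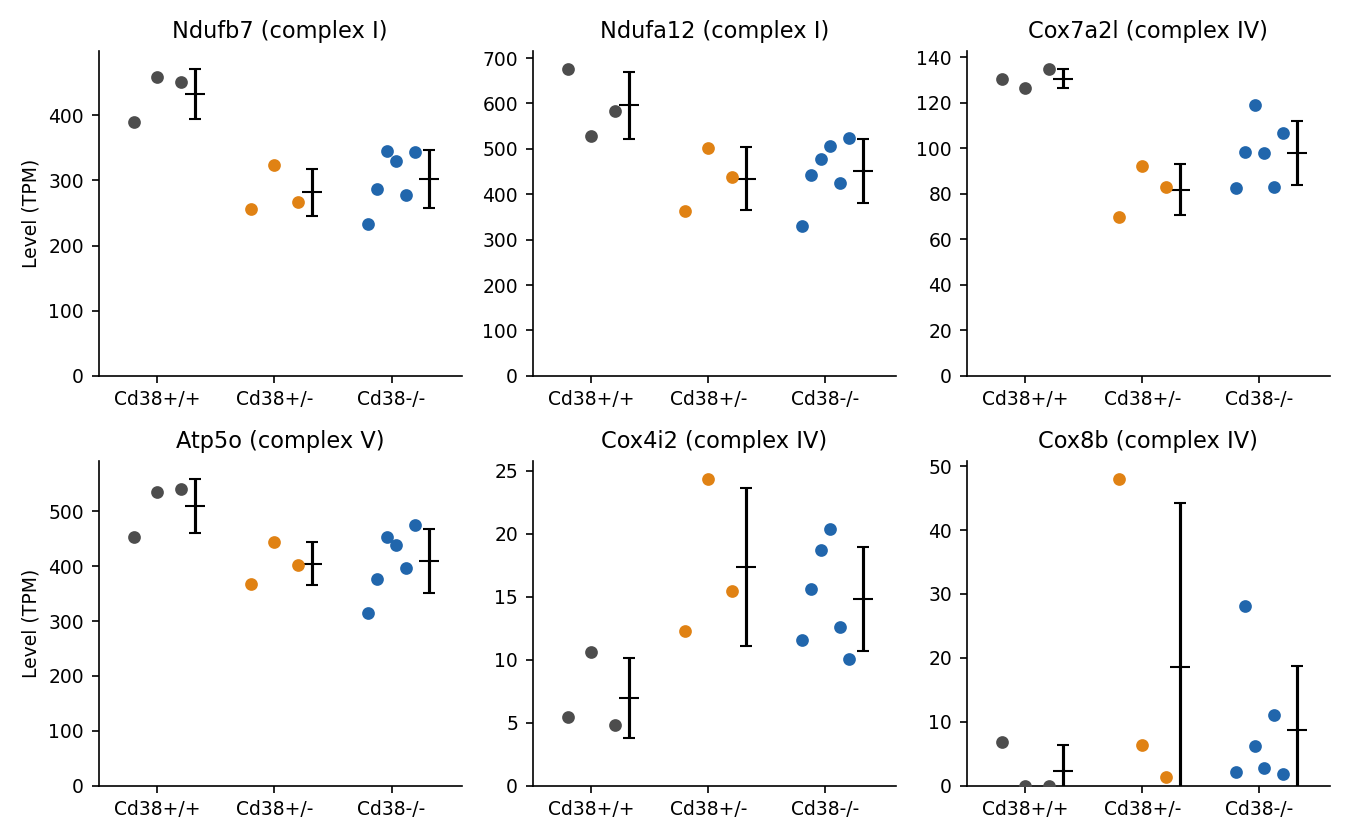
TPM (y axis) of Ndufb7, Ndufa12, Cox7a2l, Atp5o, Cox4i2 and Cox8b in each library (points), with mean and SD by genotype (bars are cut at 0). Ndufb7, Ndufa12 and Cox7a2l are lower in all 9 mutant libraries than in any Cd38+/+ library, and Cox8b is led by 1 Cd38+/- library at 48.0 TPM and 1 Cd38-/- library at 28.04 TPM.

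In the ATP synthase 0 of 17 members were called, and the large subunits of the catalytic head had positive log2 fold changes. Atp5a1, the alpha subunit, was at 563, 665 and 766 TPM in Cd38+/+, 775, 752 and 786 TPM in Cd38+/-, and 719 to 804 TPM (median 763) in Cd38-/- libraries. Its log2 fold changes were 0.22 (95% interval -0.11 to 0.56) and 0.21 (95% interval -0.04 to 0.45). Atp5b was at 1819, 1705 and 2047 TPM in Cd38+/+, 1966, 2095 and 2007 TPM in Cd38+/-, and 1795 to 2086 TPM (median 1957) in Cd38-/- libraries, with log2 fold changes of 0.13 and 0.08. Alpha and beta, which together form the hexamer that makes ATP, are among the 3 longest transcripts of this complex (2573 and 1916 nt). None of these directions was stable: over the alternative settings the log2 fold change reached down to -0.09 in Cd38+/- and -0.13 in Cd38-/- for Atp5a1, and to -0.08 and -0.23 for Atp5b.

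The remaining head subunits were mixed. Atp5c1 (gamma) was at 0.08 in both comparisons, with alternatives down to -0.06 and -0.18, and Atp5d (delta) at 0.03 and -0.04, whereas Atp5e (epsilon), with a transcript of 421 nt, was at -0.39 and -0.16. Atp5o, the oligomycin sensitivity subunit of the peripheral stalk, was at 453, 535 and 541 TPM in Cd38+/+, 367, 445 and 401 TPM in Cd38+/-, and 315 to 476 TPM (median 418) in Cd38-/- libraries. Cd38+/- did not overlap Cd38+/+ and Cd38-/- did (log2 fold changes -0.33 and -0.32, limma q = 0.230 and 0.105). The 3 genes of the membrane ring had medians of -0.06 and -0.10.

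The genes whose promoters are printed with the NRF1 letters were all below 0 in Cd38+/-, and all but Atp5k were in Cd38-/-. Whether they differ from each other was not tested. Ndufa11 stood at -0.43 and -0.35 in the comparisons with Cd38+/+, Atp5g2 at -0.30 and -0.10, and Atp5k at -0.29 and 0.15. Atp5k, a small membrane subunit, was at 230, 233 and 516 TPM in Cd38+/+, so 1 library set its mean there, and at 251 to 406 TPM in Cd38-/- against 231, 280 and 235 TPM in Cd38+/- libraries (0.44, limma q = 0.259).

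Genes that act with these complexes were read from lists. Of the 4 complex II genes, 0 were called in any comparison. Sdhb was at 456, 449 and 267 TPM in Cd38+/+, 254 to 338 TPM in Cd38+/- and 248.8 to 342.6 TPM in Cd38-/- libraries, and Sdha was at 0.14 and 0.09. Cycs, the soluble cytochrome c, was at -0.06 and 0.06. None of 15 complex I assembly genes and none of 6 ATP synthase assembly or inhibitor genes was called. Of 6 complex III assembly genes, Lyrm7, which handles the Rieske protein, was called higher in Cd38-/-, but it passed the filter only through the mutant libraries and lay near 0 in the Cd38+/+ libraries, which detected fewer genes (0.03 to 1.73 TPM in Cd38+/+, 4.24 to 7.84 TPM in Cd38+/-, 5.96 to 14.8 TPM in Cd38-/-, log2 fold change 2.58, SE 0.43, limma q = 0.0104). Of the 8 regulators of nuclear respiratory genes that were tested, 0 were called, with medians of 0.42 in Cd38+/- and 0.27 in Cd38-/- against Cd38+/+ and of -0.16 between the mutants. Against Cd38+/+, 1 and 3 of the 8 were below 0. Nrf1, named after its values were seen, was at 21.9 to 26.1 TPM in Cd38+/+, 35.9 to 42.4 TPM in Cd38+/- and 28.8 to 43.2 TPM in Cd38-/- libraries. Its log2 fold changes were 0.66 and 0.46 (limma q = 0.205 and 0.0857). Such a separation upward was seen in 15.5% and 8.21% of all genes.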

How the data were processed

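RNA of bead-selected midbrain astrocytes was sequenced in 12 libraries (3 Cd38+/+, 3 Cd38+/-, 6 Cd38-/-). The authors trimmed reads with Trim Galore 0.6.4, mapped them to mm10 with STAR 2.7.1a and estimated expression with RSEM 1.2.28; the annotation is not given in the sources used here, and DESeq2 1.36.0 is also named in the submitters' processing notes. The deposited values are TPM, 1 column per library, for 20614 genes. They hold no counts, so depth is unknown, no counting interval is given, and a 0 sets no limit.

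The members and lists were chosen with earlier results of these data known. Genes with a mean above 5 TPM in a compared genotype were fitted as log2(TPM + 1) with limma 3.58.1 (lmFit, eBayes with trend, R 4.3.3, statmod 1.5.0), with Storey q under 0.05 and 1.2-fold as the call. Two-sided exact permutation tests cannot go below p = 0.1 (3 against 3) or 0.0119 (6 against 3). The fit was also run on simulated data, with normal noise drawn separately for each gene and only genes above 5 TPM in both genotypes. That simulation held no gap in detection between genotypes, so it does not show how the fit behaves with the Cd38+/+ libraries. Its outcome is not reported here. Lengths, GC content and positions are from GENCODE vM21 (GRCm38; 20503 genes matched), promoters from RefSeq GRCm38.p6. Named members were those called, those with the largest changes without overlap, the 2 most abundant per complex, core subunits, isoforms with their counterparts, and those nearest to 5 TPM. Alternatives were pseudocounts of 0.1 and 5, no filter, Benjamini-Hochberg, median-ratio and quantile scaling, no variance trend, library quality weights, all 12 libraries in one fit, a replicate block, removal of length and GC trends, both of these, and leaving out each library; 1 variance per genotype was added after seeing the data. Figures were drawn with matplotlib 3.10.9 (Python 3.11.15). Values of 1 complex I gene are not reported here.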

Additional observations from a re-analysis of the deposited data

Results flagged for a closer look

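In 49 groups of 6 Cd38-/- libraries tested, 2 had a library far from the others by Dixon's test, where chance gives about 1 in 20. Ndufs3, the complex I core subunit, was at 181 TPM (180.9) in Cd38-/- replicate 1 and at 213 to 230 TPM in the other 5 libraries; that replicate also held the lowest value for 38 of the 80 members. Cox8b was at 28.04 TPM in Cd38-/- replicate 2 and at 1.90 to 11.1 TPM in the other 5, and the same replicate had the highest Ttr of its genotype, at 1642 TPM.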

How the results depend on the processing

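In Cd38+/- against Cd38+/+ the count of members called was 0 and became 1 with no filter (663 of 17204 genes) and 3 with all 12 libraries in one fit (1464 of 11763 genes). In Cd38-/- against Cd38+/+ the count was 1 (970 of 11722 genes). It became 3 with no filter (2283 of 18906 genes) and 4 with all 12 libraries in one fit (1822 of 11722 genes). With length and GC trends removed it was 7 (1315 of 11709 genes). The count was 0 with Benjamini-Hochberg adjustment (326 genes), library quality weights (1 gene) and 1 variance per genotype (1 gene, chosen after seeing the data). It was also 0 with the replicate block (2 genes), and with the block and length and GC trends removed (2 genes). Leaving out 1 library gave 0 to 8: it was 8 without Cd38+/+ replicate 3 (3119 of 11779 genes) and 4 without Cd38+/+ replicate 1 or 2 (1829 and 1931 genes). The count was 0 without Cd38-/- replicate 1, 2, 5 or 6, where calls over all genes also fell, to 112, 74, 93 and 154 genes. The median over the members in that comparison, -0.09, was -0.286 with the block and length and GC trends removed, -0.04 with library quality weights, and -0.13 to -0.02 with 1 library left out. Leaving out 1 library gave medians of -0.32 (without Cd38+/- replicate 2) to -0.12 (without Cd38+/- replicate 1) in Cd38+/- against Cd38+/+, and of -0.0075 (without Cd38+/- replicate 1) to 0.20 (without Cd38+/- replicate 2) between the mutants. The cause was not tested. In Cd38-/- against Cd38+/- the library quality weights called 16 members among 3120 genes and turned Cox8b from -0.50 to 1.358; this fit of the weights stopped before it converged, as did that of Cd38+/- against Cd38+/+. Over all genes, the calls in Cd38-/- against Cd38+/+ were 77.5% higher, 58.6% with median-ratio scaling, 50.5% with quantile scaling and 32% with length and GC trends removed, of 970, 941, 1115 and 1315 genes called; 326 were called with Benjamini-Hochberg adjustment, 1 with 1 variance per genotype, 2 with the block and 1822 with all 12 libraries in one fit. The labels do not say whether libraries with the same replicate number share more than the number. Deviations of same-numbered libraries correlated at -0.003, 0.04 and 0.05 (Cd38+/+ with Cd38+/-). The values were -0.09, -0.04 and -0.06 for Cd38+/+ with Cd38-/-, and 0.50, -0.32 and -0.003 for Cd38+/- with Cd38-/-. Differently numbered libraries of the 2 mutants ran from -0.56 to 0.53. So few correlations cannot tell whether some same-numbered libraries shared a batch. The block changed no other call of a member. The 39 named members kept their side of the threshold in 736 of 740 values in Cd38+/- against Cd38+/+, 827 of 857 in Cd38-/- against Cd38+/+ and 855 of 858 between the mutants. Of these members only Ndufb7 was called in a main fit, so these counts mostly record genes that stayed uncalled and do not measure stability. The rounded log2 fold change did not keep the sign of the main fit in 27, 41 and 87 of these values. The depth behind a TPM value is unknown.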
